A study of Rattus norvegicus with 9 samples.

Results

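The 32 glutamate genes examined here encode subunits of the AMPA, NMDA, kainate and delta glutamate receptors, metabotropic glutamate receptors, a protein that binds a delta receptor, vesicular and plasma membrane glutamate transporters, and glutamine synthetase. They were chosen by symbol, and every non-control probe that carried one of the symbols was used. This gave 60 of the 45598 probes and 32 of the 34912 gene names on the array. To be tested, a probe had to be well above background on 4 or more of the 9 arrays. Of the 60 probes 58 passed, and each of the 32 genes kept at least 1 tested probe. The 2 probes left out were a Grm6 probe, well above background on 1 of 9 arrays, and the dimmer probe of Slc17a6, well above background on 0 of 9 arrays.

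RNA was taken from the amygdala, the left and right sides together, of 1 rat per array. All rats were female SHR, the spontaneously hypertensive rat, an inbred strain that develops high blood pressure. Each had both ovaries removed at 4 weeks of age, recovered for 1 week, carried a minipump under the skin for 1 month and was 9 weeks old when the brain was taken. In the OV+E2 rats (n = 5) the pump released 2 µg of estradiol per day, dissolved in PEG, and in the OV rats (n = 4) it held PEG alone. The comparison asks which amygdala transcripts differ when estradiol is given back after ovariectomy. Rats with ovaries and rats of other strains were not analysed here, so the values show estradiol against its absence in ovariectomised SHR only.

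Glutamate is the main excitatory transmitter of the brain. It opens AMPA, kainate and NMDA channels, of which the NMDA channel also needs the membrane to be depolarised and admits the calcium that starts many forms of synaptic plasticity, in the amygdala those behind learned fear. Metabotropic receptors signal through G proteins and tune release and excitability, vesicular transporters fill synaptic vesicles, and transporters on astrocytes and neurons clear the transmitter, which glutamine synthetase of astrocytes turns into glutamine.

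The probes are 60 bases long, and for several genes the probes of the same gene gave different results. Why they did was not tested. The stretches below are 30 bases of each probe of 3 genes chosen after their values were seen: Grin2d, with the largest difference by brightest probe, Slc17a7, the gene higher in every OV+E2 rat, and Slc1a3, of which 1 array read high on 1 probe only. They are taken from the scanner files and written 5′ to 3′ as those give them, with the longest unbroken run of G and C in capitals. Each stretch is richer in G and C than its whole probe, so it does not stand for the composition of that probe. The Grin2d probes lie on the minus strand of chromosome 1 in rat build rn4, at chr1:96309508-96309567, chr1:96308941-96309003 and chr1:96308327-96308386 in the order printed, the Slc17a7 probes on the plus strand at chr1:95652309-95652368 and chr1:95649107-95649166, and the Slc1a3 probes on the minus strand at chr2:58270245-58270304 and chr2:58272281-58272340. The exon or untranslated region of each was not looked up, since no rn4 annotation was used.
Grin2d A_64_P118192: tCCCGCCGCCCGCGCCCacctcgcgttcgc
Grin2d A_44_P1081810: cggacctggccggaCCCCGCCtggagcagc
Grin2d A_44_P1100966: gtgaCCCttcagtgatgatccagcagacac
Slc17a7 A_44_P545447: ccagcacactttGCCGGGCCttgtccttag
Slc17a7 A_44_P505721: cggaggccagatCGCCGacttcctgcgcag
Slc1a3 A_64_P113725: CCCactgtggactgggaaacatcactttgt
Slc1a3 A_64_P021516: GCCCaggacaatgaaccagagaaacccgtg
G and C made up 78.3%, 66.7% and 45% of the whole Grin2d probes in that order, 50% and 55% of the Slc17a7 probes, and 35% and 45% of the Slc1a3 probes.

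Values are log2 of the processed signal minus the log2 of the 75th percentile of the array, so that 0 is a signal equal to that percentile. They compare arrays for 1 probe and do not compare the levels of different probes. The 75th percentile itself was 557 to 738 signal units on 8 arrays and 130 on OV replicate 3, which also had fewer probes well above background, 24216 against 29046 to 31381, and a mean correlation with the other arrays of 0.947 against 0.980 to 0.983. No label sets OV replicate 3 apart, so it was kept, and values without it are given for the results that it moved most. The authors' value column for that rat did not match its scanner file (correlation 0.938), and which of them is intended is not known. All values printed for that rat are from the scanner file. With the authors' values over 9 arrays, the brightest probes of Grm3, Grik5, Grm2 and Grin2d differed by −0.005, −0.02, −0.31 and −1.56. The scanner values gave 0.48, −0.29, −0.61 and −1.33. Of the amygdala region markers listed, Cyp26b1, Etv1, Lypd1 and Sema5a were well above background on all 9 arrays, Rspo2 on 3 arrays, and no value was read for Tac2. In RNA of a whole tissue, fewer cells of a type and less RNA per cell cannot be told apart.

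Slc17a7 was the only glutamate gene whose brightest probe was higher in every OV+E2 rat than in every OV rat, and Grin2d and Grm2 were lower in every OV+E2 rat. No glutamate gene passed limma's test with Benjamini-Hochberg adjustment over all probes (smallest adjusted p = 0.252), and neither did any other probe of the array (0% of 30208 tested probes, smallest adjusted p = 0.155). At an unadjusted p under 0.05 by limma there were 5 of the 32 genes by their brightest probe, against 10.4% of all tested probes. Of these 1 was higher (Slc17a7), against 3.2% of all tested probes, and 4 were lower (Gria1, Grin2d, Grin3b and Grm2), against 7.17%. With limma's array weights 7 of the 32 genes had an adjusted p under 0.05 (Grin2a, Grin2c, Grin2d, Grin3b, Grm2, Slc17a7 and Slc1a2), against 11.6% of all tested probes (3492 of 30208), in a fit that gave OV replicate 2 a weight of 4.25, OV replicate 3 a weight of 0.0489 and the other arrays weights of 0.472 to 3.

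In number, 20 of the 32 genes were higher and 12 lower in OV+E2 rats by their brightest probe, with a median log2 difference of 0.07, against 0.00 over all tested probes. Without OV replicate 3 the counts were 17 higher and 15 lower and the median was 0.01. Groups that did not overlap were found for 1 gene higher, against 2.88% of all tested probes, and for 2 genes lower, against 4.02%. Of the 22 genes with several tested probes, 11 had all probes on the same side of 0, and 16 did without OV replicate 3.

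**Figure D1:**
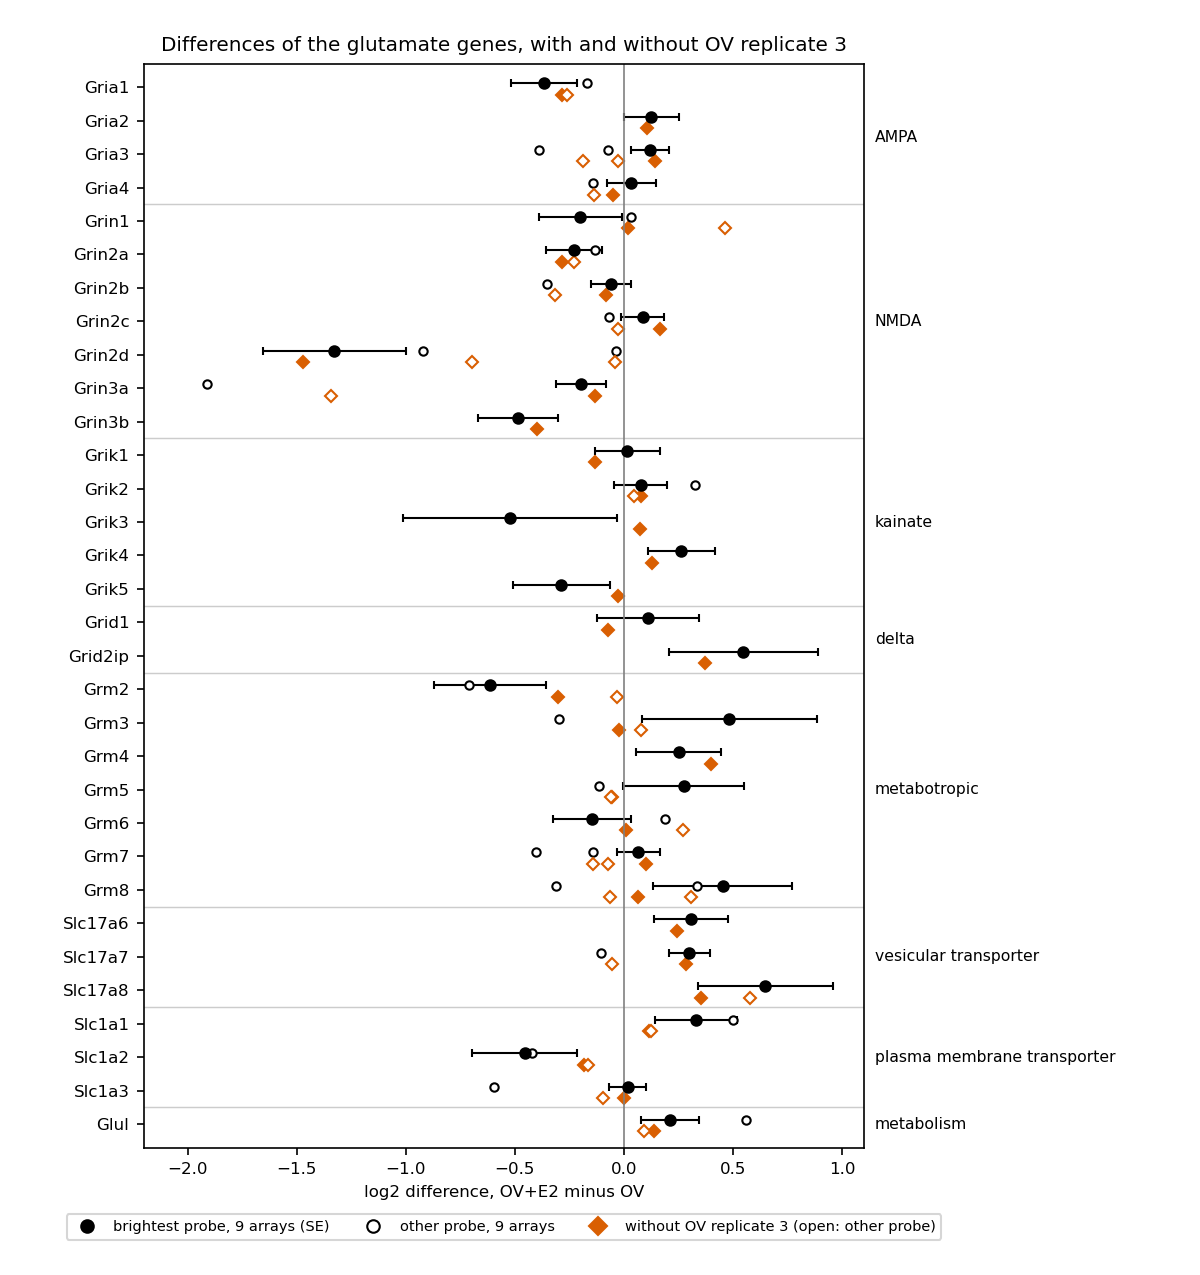
The plot gives the log2 difference (OV+E2 minus OV) of each glutamate gene, grouped by role, for the brightest probe (black points, bars are SE) and the other probes (open circles) over 9 arrays, with the same probes without OV replicate 3 as diamonds. Grin2d and a dim Grin3a probe lie farthest to the left, and most diamonds lie closer to 0 than the circles of the same probe.

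Among the AMPA receptor subunits, which carry fast excitation, Gria1 was lower in OV+E2 rats and the other subunits were within 0.13 of 0 by their brightest probe. Gria1, which encodes GluA1, the subunit inserted at synapses during plasticity, had 2.05, 1.73, 2.07, 1.58 and 1.66 in the 5 OV+E2 rats, against 2.31, 1.96, 2.43 and 2.03 in the 4 OV rats. OV+E2 replicates 1 and 3 reached the lower OV rats, so the groups overlapped. The difference was −0.36 ± 0.15 (SE) with an adjusted p of 0.456 by limma, and −0.28 without OV replicate 3. A second Gria1 probe differed by −0.17, and both Gria1 probes were lower with and without that array.

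Gria3, which encodes GluA3, had the brightest AMPA probe, with 3.68, 3.68, 3.61, 3.83 and 3.64 in OV+E2 rats, against 3.49, 3.64, 3.64 and 3.51 in OV rats. The groups overlapped narrowly, and the difference was 0.12 ± 0.09 (SE). The other Gria3 probes went the other way, by −0.07 and −0.39, of which the larger was −0.19 without OV replicate 3. Gria2, whose edited subunit keeps calcium out of the channel, differed by 0.13 ± 0.12 (SE) on its only probe, and Gria4, which encodes GluA4, by 0.03 and −0.14 on its 2 probes. The sign of Gria4 on the brighter probe turned without OV replicate 3, to −0.05.

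The NMDA receptor genes held the largest difference of the 32 genes by brightest probe, in Grin2d, and 6 of the 7 were lower in OV+E2 rats by their brightest probe, although Grin1 turned without OV replicate 3 (0.02) and after centring on GC content (0.14), and Grin2b turned with median scaling (0.05), with normexp background correction (0.05) and with GC centring (0.01). Grin2d encodes GluN2D, a subunit that gives slowly closing channels with little magnesium block. Its GC-richest probe, the first sequence printed, had 4.87, 5.04, 4.98, 4.94 and 4.77 in OV+E2 rats, against 5.60, 7.44, 5.82 and 6.13 in OV rats. Every OV+E2 rat was below every OV rat, the OV+E2 values lay close together, and OV replicate 2 stood above the other OV rats.

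The difference of that probe was −1.33 ± 0.33 (SE) with an adjusted p of 0.252 by limma, and leaving out 1 rat at a time gave −1.54 to −0.93. The probe of intermediate GC content, nearer to the 3′ end in the genome, had −2.44, −2.13, −2.51, −2.24 and −2.64 in OV+E2 rats, against −1.89, −1.67, −0.79 and −1.53 in OV rats, again without overlap, and differed by −0.92 ± 0.22 (SE). The third Grin2d probe, of 45% GC and nearest to the 3′ end, 1181 and 614 bases downstream of the others, had −1.04, −1.13, −1.14, −0.996 and −0.96 in OV+E2 rats, against −1.17, −0.94, −1.04 and −0.91 in OV rats. These groups lay on top of each other, with a difference of −0.03 ± 0.09 (SE).

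The 3 Grin2d probes thus differed in the order of their GC content, as did probes of the whole array. Among all tested probes the median difference was 0.10 below 30% GC, 0.06 at 35 to 40%, −0.12 at 55 to 60%, −0.37 at 65 to 70% and −0.65 at 75% and above, where 42 of 43 probes were lower in OV+E2 rats. The 10 brightest of those GC-rich probes (mean log2 signal over 4), 9 of them of genes other than Grin2d, differed by −1.61 to −1.02. Both GC-rich Grin2d probes lay below the lower quartile of their GC bin, −1.33 against −1.07 and −0.92 against −0.70. Over the 80 tested probes of at least 70% GC, the median deviation from the mean of each probe was −0.40, −0.25, −0.32, −0.26 and −0.38 on the OV+E2 arrays, against −0.09, 0.33, 0.83 and 0.13 on the OV arrays, so every OV+E2 array was below every OV array. When each array was centred within 5% bins of GC content, an alternative chosen after seeing the data, the difference of the first Grin2d probe was −0.70 with an unadjusted p of 0.164 by limma, and that of the second was −0.58 with an unadjusted p of 0.002 and an adjusted p of 0.299 by limma. The part of base composition in the Grin2d difference was not tested beyond this.

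**Figure D2:**
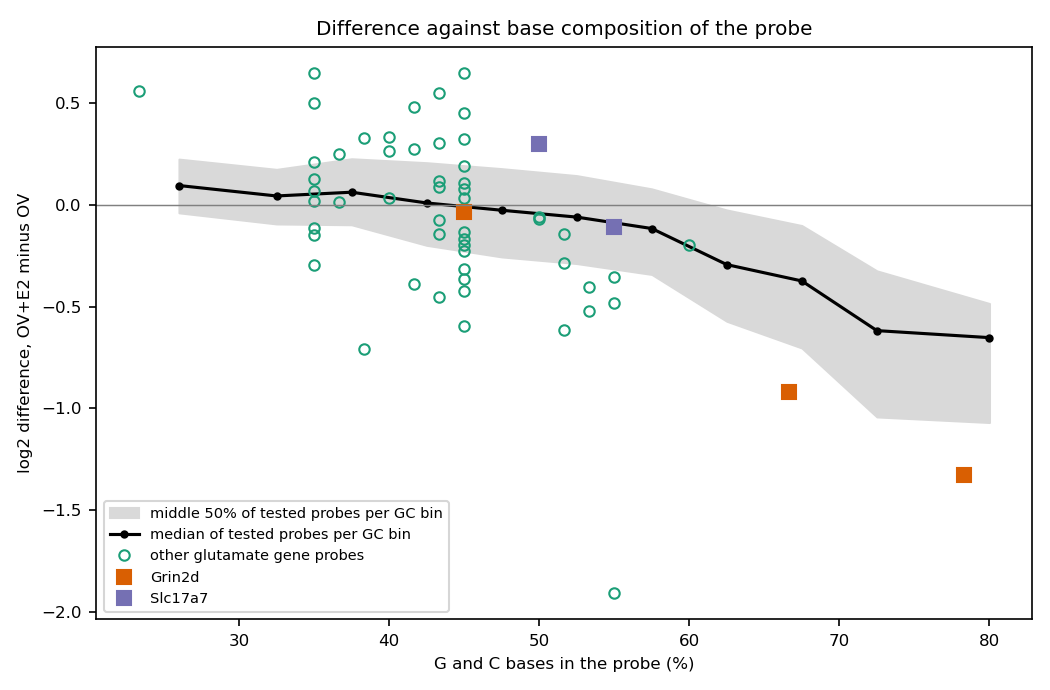
The plot sets the log2 difference (OV+E2 minus OV) against the share of G and C bases of the probe, with the median (line) and the middle 50% (band) of all tested probes per GC bin and each glutamate gene probe as a symbol. The 2 GC-rich Grin2d probes (orange squares) lie below the band in a range where the band itself is low, and the brighter Slc17a7 probe (purple square at 50% GC) lies above it.

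Over the 58 glutamate probes the Spearman correlation of GC content with the difference was −0.52, against −0.21 over all 30208 tested probes, a description in which probes share the same 9 arrays. Without OV replicate 3 the correlations were −0.49 and −0.24. In the 19 glutamate genes with probes of different GC content, the probe richest in GC had the lower difference of the richest and the poorest probe in 12 genes, and in 13 without OV replicate 3.

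Grin3b encodes GluN3B, a subunit that binds glycine and reduces calcium entry. Its only probe had −3.49, −3.67, −4.16, −4.06 and −3.74 in OV+E2 rats, against −3.73, −3.12, −3.09 and −3.41 in OV rats. The OV rat of lowest value lay among the OV+E2 rats, and the other OV rats were above all of them. The difference was −0.48 ± 0.18 (SE) with an adjusted p of 0.417 by limma. The related Grin3a, which encodes GluN3A, differed by −0.20 on its brighter probe and by −1.91 on a dim probe that was well above background on 1 of 5 OV+E2 arrays and 4 of 4 OV arrays, where the OV+E2 rats spanned −6.18 to −4.59 and the OV rats −4.64 to −1.75.

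Grin1, the subunit that every NMDA receptor contains, differed by −0.20 ± 0.19 (SE) on its brighter probe and by 0.03 on the other. Without OV replicate 3, which read highest on both Grin1 probes, the differences were 0.02 ± 0.08 (SE) and 0.46 ± 0.36 (SE). Grin2a, which encodes GluN2A, the main partner of GluN1 in the adult forebrain, was lower on both probes, by −0.23 and −0.13. Grin2b, which encodes GluN2B, the partner that prevails early in life, differed by −0.06 ± 0.09 (SE) on its brighter probe. Its second probe had −2.01, −2.25, −1.99, −2.02 and −2.14 in OV+E2 rats, against −1.63, −1.82, −1.61 and −1.83 in OV rats, a difference of −0.35 ± 0.10 (SE) with an adjusted p of 0.286 by limma. The groups of that Grin2b probe did not overlap, and centring on GC content left −0.20. Grin2c, which encodes GluN2C, differed by 0.09 and −0.07 on its 2 probes. The brighter Grin2c probe, highest in OV replicate 3, differed by 0.16 without that array, with an unadjusted p of 0.031 by limma and groups that no longer overlapped.

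**Figure D3:**
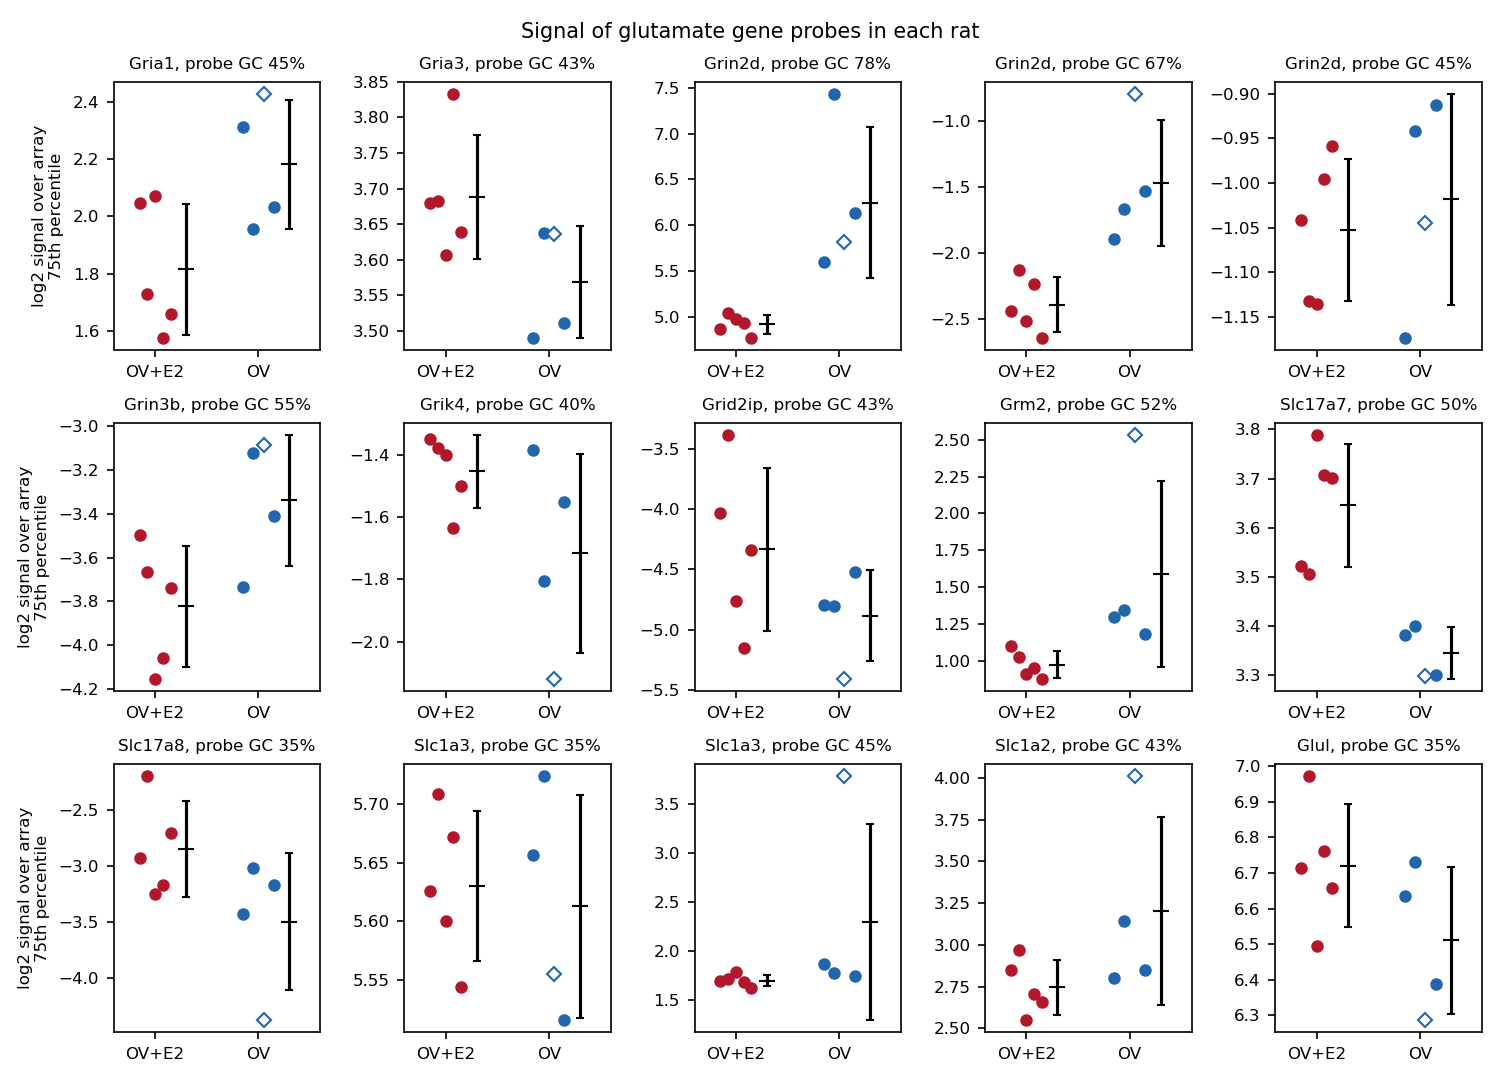
Each panel plots the log2 signal over the 75th percentile of the array for 1 probe in each rat, OV+E2 in red and OV in blue with OV replicate 3 as an open diamond, and the mean ± SD beside each group (n = 5 and n = 4). The OV+E2 points of the GC-rich Grin2d probes and of Grm2 lie below every OV point, those of Slc17a7 above every OV point, and the groups of the other panels overlap.

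None of the 5 kainate receptor genes had an unadjusted p under 0.05 by limma. Grik4 encodes GluK4, a subunit that raises the affinity of kainate receptors for glutamate. It had −1.35, −1.38, −1.40, −1.64 and −1.50 in OV+E2 rats, against −1.39, −1.80, −2.12 and −1.55 in OV rats, and differed by 0.26 ± 0.15 (SE), or by 0.13 without OV replicate 3. Grik5, which encodes the partner subunit GluK5, had the brightest kainate probe, with 4.01, 4.10, 4.26, 4.16 and 4.12 in OV+E2 rats, against 4.27, 4.23, 5.20 and 3.97 in OV rats. OV replicate 3 stood far above the other Grik5 values, which overlapped, and the difference of −0.29 was −0.03 without it. Grik1 (GluK1) differed by 0.01 and Grik2 (GluK2) by 0.08 on its brighter probe. Grik3 (GluK3) differed by −0.52 with OV replicate 3 at −1.92 and the other 8 arrays at −4.79 to −3.93, and by 0.07 without that array.

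Neither the delta receptor gene Grid1 nor Grid2ip separated the groups. Grid1, which encodes GluD1, a receptor subunit that links synapses through cerebellins, had −2.80, −2.70, −2.25, −2.64 and −2.32 in OV+E2 rats, against −2.95, −2.15, −3.20 and −2.31 in OV rats, with a difference of 0.11 ± 0.23 (SE). Grid2ip encodes delphilin, a scaffold known to bind the delta receptor GluD2 in the cerebellum. It had −4.04, −3.38, −4.76, −5.15 and −4.34 in OV+E2 rats, against −4.80, −4.80, −5.41 and −4.52 in OV rats, and was well above background on 4 of 5 and 3 of 4 arrays. The values overlapped, and the difference was 0.55 ± 0.34 (SE), 1.29 within slide 1 and −0.23 within slide 2, which holds 3 OV+E2 rats and 1 OV rat, so that each value within slide 2 rests on a single OV rat.

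Of the metabotropic receptors, Grm2 was lower in OV+E2 rats and Grm4 higher with or without OV replicate 3, while the differences of Grm3, of Grm5 and of the 2 brighter Grm8 probes were smaller without that array. Grm2 encodes mGlu2, a presynaptic receptor that limits glutamate release. Its brighter probe had 1.11, 1.03, 0.92, 0.95 and 0.88 in OV+E2 rats, against 1.30, 1.35, 2.53 and 1.18 in OV rats. The OV+E2 rats were all below the OV rats, and OV replicate 3 stood far above the rest. The difference was −0.61 ± 0.26 (SE) with an adjusted p of 0.460 by limma. Without OV replicate 3 it was −0.30 ± 0.07 (SE) with an adjusted p of 0.175 by limma, and the groups still did not overlap. A dim second Grm2 probe, well above background on 5 of 9 arrays, differed by −0.71, and by −0.03 without that array.

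Grm3 encodes mGlu3, which astrocytes carry as well as neurons, and its 2 probes showed OV replicate 3 on opposite sides. On the brighter probe that array had −2.25 and the other 8 arrays −0.33 to −0.02, and on the second it had 0.04 and the others −1.49 to −1.14. The Grm3 differences of 0.48 and −0.30 were −0.02 and 0.08 without it. Grm5, which encodes mGlu5, the postsynaptic receptor coupled to calcium release, differed by 0.27 and −0.11, and by −0.06 on both probes without that array.

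The receptors of the third metabotropic group, which sit mainly at release sites, were Grm4, Grm6, Grm7 and Grm8. Grm4 (mGlu4) had 1.52, 2.22, 1.42, 1.76 and 1.66 in OV+E2 rats, against 1.31, 1.43, 1.91 and 1.20 in OV rats, and differed by 0.25 ± 0.20 (SE), or by 0.40 without OV replicate 3. Grm7 (mGlu7), whose probe was the brightest of the class, had 1.57, 1.73, 1.69, 1.63 and 1.55 in OV+E2 rats, against 1.35, 1.67, 1.68 and 1.58 in OV rats. These Grm7 values overlapped, with a difference of 0.07 ± 0.10 (SE), and its other probes differed by −0.14 and −0.40, or by −0.07 and −0.14 without OV replicate 3. Grm6 (mGlu6), known from the retina, differed by −0.15 and 0.19 on its 2 tested probes. Grm8 (mGlu8) differed by 0.45, −0.31 and 0.33 on its 3 probes, and by 0.07, −0.06 and 0.31 without OV replicate 3.

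All 3 vesicular transporters were higher in OV+E2 rats by their brightest probe, with and without OV replicate 3, except that Slc17a8 turned with normexp background correction (−0.03). Slc17a7 encodes VGLUT1, the vesicular transporter of cortical and basolateral amygdala excitatory neurons. Its brighter probe had 3.52, 3.50, 3.79, 3.71 and 3.70 in OV+E2 rats, against 3.38, 3.40, 3.30 and 3.30 in OV rats. The lowest OV+E2 rat was above the highest OV rat, and the OV rats, replicate 3 included, lay close together.

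The Slc17a7 difference was 0.30 ± 0.09 (SE), a ratio of 1.23, with an adjusted p of 0.326 by limma. It was 0.28 without OV replicate 3, 0.37 after centring on GC content, 0.15 within slide 1 and 0.43 within slide 2, and 0.26 to 0.34 when 1 rat at a time was left out. The second Slc17a7 probe, 3202 bases upstream in the genome, had −1.20, −1.59, −1.01, −1.40 and −1.40 in OV+E2 rats, against −1.06, −1.42, −1.05 and −1.32 in OV rats. That probe did not separate the groups and differed by −0.11 ± 0.14 (SE). Of 8 excitatory neuron markers tested, with Slc17a7 itself among them, 6 were higher and 2 lower in OV+E2 rats, with a median difference of 0.13, or 0.02 without OV replicate 3, and their part in the Slc17a7 difference was not tested.

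Slc17a6 encodes VGLUT2, the vesicular transporter of thalamic, hypothalamic and medial amygdala neurons. It had 2.62, 2.87, 2.12, 2.23 and 2.23 in OV+E2 rats, against 2.06, 2.29, 1.92 and 2.17 in OV rats. OV+E2 replicates 1 and 2, both on slide 1, were above the other rats, and the difference of 0.31 ± 0.17 (SE) was 0.66 within slide 1 and 0.02 within slide 2. Of the 7 listed thalamus and hypothalamus markers, Slc17a6 among them, 5 were higher and 2 lower, with a median of 0.20. Tcf7l2, Lef1 and Rora, like Slc17a6, were highest in OV+E2 replicates 1 and 2, with 1.23 and 1.98 for Tcf7l2 (0.35 to 1.21 in the other rats), −0.38 and 0.62 for Lef1 (−1.23 to −0.82) and 0.93 and 1.57 for Rora (0.35 to 0.72). The summed linear signal of the list ran the other way, 25.3 to 43.9 times the 75th percentile in OV+E2 rats, against 39.8 to 71.8 in OV rats, as Avp (−1.08) and Oxt (−0.82) were lower. Whether the borders of the dissection entered the Slc17a6 difference was not tested. Slc17a8 encodes VGLUT3, found in some serotonin, acetylcholine and inhibitory neurons. Both of its probes were dim and differed by 0.65, with OV+E2 rats at −3.25 to −2.19 and OV rats at −4.37 to −3.01 on the brighter one. The dimmer probe was well above background on 4 of 5 OV+E2 arrays and 1 of 4 OV arrays. The OV+E2 arrays alone thus carried it through the filter, so it is no separate check of the brighter probe. With normexp background correction it differed by −0.21. Without OV replicate 3 the brighter probe differed by 0.36 and the other by 0.58.

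The transporters that clear glutamate differed little once OV replicate 3 was set aside. Slc1a2 encodes GLT-1, the main astrocyte transporter. It had 2.85, 2.97, 2.55, 2.71 and 2.66 in OV+E2 rats, against 2.80, 3.14, 4.01 and 2.85 in OV rats. The OV+E2 rats overlapped with OV replicates 1 and 5, while OV replicate 2 and, farther off, OV replicate 3 were above all of them. The difference of −0.46 ± 0.24 (SE) was −0.18 without OV replicate 3. The second Slc1a2 probe gave −0.42 and −0.17 in the same way.

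Slc1a3, which encodes GLAST, the other astrocyte transporter, had on its brighter probe 5.63, 5.71, 5.60, 5.67 and 5.54 in OV+E2 rats, against 5.66, 5.72, 5.55 and 5.52 in OV rats. These were among the steadiest values of the 32 genes, and the difference was 0.02 ± 0.08 (SE). On the second Slc1a3 probe, 2036 bases upstream in the genome, OV+E2 rats had 1.68, 1.71, 1.79, 1.67 and 1.62, against 1.86, 1.77, 3.79 and 1.74 in OV rats, so OV replicate 3 read high on this probe and not on the other. Slc1a1, which encodes the neuronal transporter EAAC1, differed by 0.33 and 0.50 on its 2 probes, and by 0.11 and 0.13 without OV replicate 3, which had the lowest value on both.

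Glul, which encodes glutamine synthetase, had 6.71, 6.97, 6.49, 6.76 and 6.66 in OV+E2 rats, against 6.64, 6.73, 6.29 and 6.39 in OV rats. The groups overlapped, and the difference was 0.21 ± 0.13 (SE), or 0.14 without OV replicate 3. On a second Glul probe of 23.3% GC the difference was 0.56, or 0.09 without that array, which had 1.98 where the other 8 arrays had 3.70 to 4.11. Of the 9 astrocyte markers listed, 4 were higher and 5 lower in OV+E2 rats, with a median difference of −0.01, or −0.08 without OV replicate 3, and their summed linear signal was 176 to 205 times the 75th percentile in OV+E2 rats, against 188 to 229 in OV rats.

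OV replicate 3 touched most of the 58 tested glutamate probes. It had the highest value of the 9 arrays on 25 of them and the lowest on 16, and was more than 1 away (log2) from the mean of the other OV arrays on 19, or 32.8%, against 26.4% of all tested probes. It was higher on 12 of these 19 and lower on 7, from −2.03 to 2.72. Without it the median size of the difference over the 58 probes was 0.13, against 0.28 with it, and 1 gene, against 5, differed by more than 0.5 by its brightest probe. The brightest probes of Gria4, Grid1, Grik1, Grik3, Grin1, Grm3, Grm5, Grm6 and Slc1a3 changed sign. At an unadjusted p under 0.05 by limma there were 5 of the 32 genes without it, 3 higher (Grin2c, Grm4 and Slc17a7) and 2 lower (Grin2d and Grm2), against 14.1% of all tested probes.

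**Figure D4:**
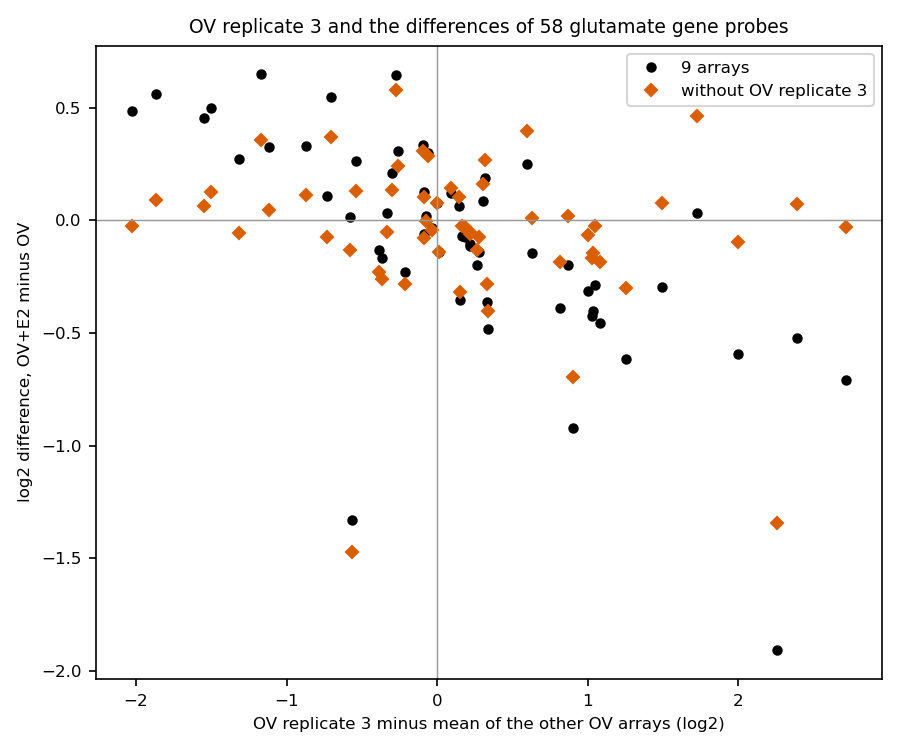
The plot sets the log2 difference (OV+E2 minus OV) of the 58 tested glutamate probes against how far OV replicate 3 lay from the mean of the other OV arrays, with 9 arrays as black points and without OV replicate 3 as orange diamonds. The black points slope down because OV replicate 3 is part of the OV mean, and the diamonds are nearly level except for the low Grin2d and Grin3a probes.

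Genes that work with these receptors and transporters were read from the same fit, and none passed limma's adjusted test. Of the 62 pathway genes tested, groups did not overlap for 5 higher (Nptxr, Cbln2, Cbln4, Slc38a2 and Aldh5a1), against 2.88% of all tested probes, and for 3 lower (Homer2, Slc38a3 and Slc38a5), against 4.02%. The 3 glutamine carriers among them are described first. Slc38a3, the carrier through which astrocytes release glutamine, had −1.67, −1.73, −1.71, −1.68 and −1.72 in OV+E2 rats, against −1.38, −1.32, −1.13 and −1.45 in OV rats, a difference of −0.38 ± 0.09 (SE) with an adjusted p of 0.252 by limma. Slc38a5, a related carrier, had 0.04, 0.22, −0.04, 0.15 and −0.11 in OV+E2 rats, against 0.42, 0.66, 1.09 and 0.47 in OV rats, a difference of −0.61 ± 0.15 (SE) with an adjusted p of 0.252 by limma. Slc38a2, which neurons use to take glutamine up, was higher, by 0.46 ± 0.18 (SE), with OV+E2 rats at 1.83 to 1.93 and OV rats at 0.79 to 1.73.

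Without OV replicate 3 these carriers differed by −0.32, −0.46 and 0.24, and after centring on GC content by −0.28, −0.51 and 0.39. Brain endothelium also carries Slc38a3 and Slc38a5, and of 6 endothelial markers 4 were lower and 2 higher, with a median of −0.26 and a summed linear signal of 18.6 to 21.1 times the 75th percentile in OV+E2 rats, against 20.7 to 33.1 in OV rats, or −0.13 and an upper OV value of 22.04 without OV replicate 3. Their part in the carrier differences was not tested. In the list of 19 genes of glutamate metabolism and further transport 12 were higher and 7 lower, 1 and 2 of them at an unadjusted p under 0.05 by limma, with a median of 0.04, and 9 were higher and 10 lower without OV replicate 3.

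Of 24 auxiliary subunits and anchors of the receptors 14 were higher and 10 lower, with a median of 0.07. At an unadjusted p under 0.05 by limma were Cbln4 (0.23), a cerebellin that bridges synapses, Nptxr (0.54), a pentraxin receptor that clusters AMPA receptors, and Cacng4 (−0.62), an AMPA receptor auxiliary subunit whose probe was dim. They differed by 0.19, 0.27 and −0.39 without OV replicate 3, the last with an unadjusted p of 0.104 by limma. Pick1, which binds GluA2 for its removal from the surface, differed by 0.58 with an unadjusted p of 0.083 by limma, and by 0.24 without that array. Of 19 postsynaptic scaffolds and kinases 9 were higher and 10 lower, with a median of −0.03, or 0.01 without OV replicate 3, and only Dlg3 (0.34, or 0.21 without OV replicate 3), which encodes the scaffold SAP102, had an unadjusted p under 0.05 by limma.

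Markers of other cells were read in the same way, and the summed signal of the groups overlapped for every list but microglia. All 8 oligodendrocyte markers were lower in OV+E2 rats, 1 of them at an unadjusted p under 0.05 by limma, with a median of −0.27 and a summed linear signal of 558 to 734 times the 75th percentile in OV+E2 rats, against 662 to 1603 in OV rats. With OV replicate 3 left out, 7 of the 8 were lower, the median was −0.14 and the highest OV sum was 823. Of 7 microglia markers 5 were lower, 4 of them at an unadjusted p under 0.05 by limma, with a median of −0.35, or −0.25 without OV replicate 3. Their summed signal was 16.9 to 20.3 in OV+E2 rats, against 22.1 to 38.1 in OV rats, or 22.1 to 29.4 without OV replicate 3. The inhibitory neuron markers had 7 of 9 higher, with a median of 0.11, and the markers of medium spiny and central amygdala neurons 3 of 8 higher, with a median of −0.28, or −0.11 without OV replicate 3. The part of these cell types in the differences of the glutamate genes was not tested.

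The consensus estrogen response element was searched in promoter windows because estradiol receptors can bind it directly. Its arms GGTCA and TGACC with 3 bases of any kind between them, which read the same on both strands, were looked for from 250 bases before to 50 bases after the gene start in RefSeq sequence of rat build GRCr8. Windows were at hand for 21 of the 32 glutamate genes, and 0 of their 26 windows held these letters, against 9 of 33469 windows (0.0269%) over all genes. This says only that these letters are not in these windows.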

How the data were processed

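Rat Agilent 1-colour (Cy3) arrays were used. The deposited scanner files give each spot's processed signal, an intensity after background subtraction. Software is Feature Extraction 9.1 per the submitters' processing notes and 10.7.3.1 per the file headers, and probe coordinates are rn4 per the file headers. The authors' own value table holds processed intensity values of unstated scaling. It served as an alternative. For OV replicate 3 its column correlated with the scanner file at 0.938 and differed from it by an SD of 1.00 (log2), and for the other arrays it correlated at over 0.999.

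Of 62976 spots per array, 4259 were controls and were dropped together with outlier flags, none was saturated, and the spots of a probe were averaged. From log2 signals the array's own 75th percentile was subtracted. The 30208 probes with a signal well above background on 4 or more arrays were fitted with limma 3.58.1 in R 4.3.3 (lmFit, eBayes, group as the only term), with Benjamini-Hochberg adjustment over all of them and a threshold of 0.05. A gene is represented by its brightest tested probe. SE is that of the fit. Motifs, counts and figures were made in Python 3.11.15 with pandas 2.3.3 and matplotlib 3.10.9.

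Values in every rat are given for genes at an unadjusted p under 0.05, for the gene of smallest p and the brightest gene of each role, and for genes whose probes disagree with 1 at that p. Values of Grm4, Slc17a6, the second Grin2b probe and the glutamine carriers were added after seeing them. The members and lists were chosen with earlier results of these data known. The rats are separate animals with 1 array each, so the spread that the p-values rest on holds differences between rats and between arrays together. The number of arrays limits the precision. On simulated data with 200 of 30168 probes changed in this comparison, 0% were recovered at 1.5-fold, 51.5% at 2-fold and 93% at 4-fold. The simulated noise was independent between probes and of equal spread on all arrays. It held no outlying array and no shift by GC content, so these rates need not hold for the real arrays. The 2 slides held both groups unevenly, with OV replicate 5 the only OV rat on slide 2. Slide, background correction, scaling, filter, array weights, replicate numbers, single arrays and GC content were varied. Replicate numbers do not mark pairs in the labels, and the deviations of same-numbered rats correlated at 0.170, −0.076, −0.011 and 0.105.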

Additional observations from a re-analysis of the deposited data

Results flagged for a closer look

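In 7 of 116 groups of values (58 tested glutamate probes in each of the 2 groups) 1 array lay apart from the rest of its group by a gap above Dixon's 95% critical value, which chance gives in about 1 of 20 groups, and in each of the 7 that array was OV replicate 3. It was high for Grin2c on the brighter probe (3.69), for Grm2 on the brighter probe (2.53), for Grm3 on the second probe (0.04), for Grm8 on the second probe (−2.22) and for Slc1a3 on the upstream probe (3.79). It was low for Grm3 on the brighter probe (−2.25) and for Glul on the second probe (1.98). These are log2 signals over the 75th percentile of the array. No OV+E2 array was set apart in this way on any of the 58 probes.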

How the results depend on the processing

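Of the 24 other settings, those within a single slide gave differences only, without a test, so they say nothing about the adjusted threshold. Wherever an adjusted test was run, 0 of the 32 glutamate genes (30 with the filter on all 9 arrays) passed it. The exception was limma's array weights, where 7 did. Glul, Gria1, Grik4, Grin2a, Grin2c, Grin2d, Grin3a, Grin3b, Grm2, Grm4, Grm8, Slc17a6, Slc17a7, Slc1a1 and Slc1a2 kept their direction in each of the 24 settings. Quantile normalization, no filter on dim probes, the filter on all 9 arrays (30 genes), the replicate block and slide 1 alone turned no gene. The median of the genes ranged from −0.05 with array weights to 0.18 with median scaling. Normexp moved the median of all probes to −0.11. GC centring and array weights without OV replicate 3 were chosen after seeing the data.

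All probes with an adjusted p under 0.05 by limma, 0 in the fit reported, were 9 with no filter on dim probes, 3492 with array weights, 16 with array weights without OV replicate 3, 69 with the authors' values and 1 with the authors' values without OV replicate 3. Probes at an unadjusted p under 0.05 by limma, 3132 in the fit reported, were 1965 with replicate number as a block, 9506 and 6497 with array weights with and without OV replicate 3, and 5653 with the authors' values. Since replicate numbers do not mark pairs, the block is given for its count only. Of the glutamate genes, 5 in the fit reported, 3 had an unadjusted p under 0.05 by limma with median scaling and 3 with slide as a block, 10 and 8 with array weights with and without OV replicate 3, and 2 with GC centring. At that p there were 2931 of the 30208 tested probes with median scaling, 2303 with slide as a block and 2874 with GC centring. The probe counts with array weights are the 9506 and 6497 given above. The 3 glutamate genes with slide as a block were Grin2d, Slc17a6 and Slc17a7. In that fit Gria1, Grin3b and Grm2 had an unadjusted p of 0.090, 0.066 and 0.098 by limma. Glutamate genes without overlap, 3 in the fit reported, were 5 with normexp, 1 with GC centring (Slc17a7), and 10 and 20 within slides 1 and 2, where groups of so few arrays separate more readily. For these other settings the share of all tested probes without overlap was not counted. Their counts therefore cannot be set against the array as a whole. Leaving out 1 rat at a time gave 0 to 1 probes at the adjusted threshold, 2022 to 5328 at the unadjusted one (5328 without OV replicate 1), 3 to 8 glutamate genes at the unadjusted one (8 without OV replicate 1) and 3 to 5 without overlap.

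Signs turned as follows, and the cause was not tested. Normexp turned Gria2 (−0.17), Grin2b (0.049), Grik1 (−0.090), Grid1 (−0.19), Grid2ip (−0.20) and Slc17a8 (−0.025). Median scaling turned Grin2b (0.046), and slide as a block Grik1 (−0.032) and Grid1 (−0.028). GC centring turned Grin1 (0.14), Grin2b (0.010), Grik1 (−0.054), Grm7 (−0.0026) and Slc1a3 (−0.051). The mean of a gene's probes turned Gria3 (−0.11), Gria4 (−0.054), Grm6 (0.022), Grm7 (−0.16) and Slc1a3 (−0.29). Array weights turned Gria4 (−0.12), Grik1 (−0.11), Grik2 (−0.019), Grid1 (−0.25), Grm3 (−0.038), Grm7 (−0.016) and Slc1a3 (−0.073), and without OV replicate 3 also Gria4 (−0.097), Grik1 (−0.13), Grid1 (−0.20), Grm3 (−0.049) and Slc1a3 (−0.046). The authors' values turned Gria4 (−0.024), Grin1 (0.019), Grik1 (−0.090), Grid1 (−0.080), Grm3 (−0.0049), Grm5 (−0.050) and Grm6 (0.047). Without OV replicate 3 they turned Gria4 (−0.050), Grin1 (0.018), Grik1 (−0.13), Grik3 (0.073), Grid1 (−0.075), Grm3 (−0.023), Grm5 (−0.055) and Grm6 (0.011). Slide 2 alone, with 1 OV rat, turned Grin1 (0.19), Grin2b (0.029), Grik1 (−0.31), Grik2 (−0.063), Grik3 (0.55), Grik5 (0.21), Grid1 (−0.099), Grid2ip (−0.23), Grm3 (−0.012) and Grm6 (0.28). Leaving out 1 rat at a time gave −0.051 to 0.090 for Gria4, −0.075 to 0.28 for Grid1, −0.13 to 0.12 for Grik1, −0.031 to 0.13 for Grik2, −0.89 to 0.073 for Grik3, −0.32 to 0.018 for Grin1, −0.023 to 0.67 for Grm3, −0.055 to 0.44 for Grm5, −0.31 to 0.010 for Grm6, −0.0082 to 0.10 for Grm7 and −0.015 to 0.055 for Slc1a3.

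Signal over background limits Grid2ip, Slc17a8 and the dim probes of Grin3a, Grm2 and Grm8, which were not well above background on every array.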
